A study of Mus musculus with 12 samples.

Results

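The genes described here are those whose mRNA level differed between the closed and the open side of the mouse main olfactory epithelium (MOE) after unilateral naris occlusion (UNO) when arrays of both genotypes were read together, but in neither genotype alone. They were chosen in 3 steps. A gene other than an odorant receptor (Olfr) gene was represented by its brightest probe set. Its adjusted p was under 0.05 in the comparison of all 6 closed with all 6 open arrays. Its adjusted p was 0.05 or more for the effect in wild-type (WT) mice and for that in H2be-KO mice. A single fit of all 12 arrays gave these effects, so both genotypes shared its estimate of the spread. Of 18394 genes other than Olfr genes tested, 363 met this rule, and they are called pooled-only genes below. On the closed side 188 of them were higher (1.02% of the genes tested) and 175 were lower (0.951%).

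The series held 12 Affymetrix Mouse Gene 1.0 ST arrays, 3 for each combination of genotype and side. The right nostril of each mouse was sealed by electrocautery at 14 days of age and occlusion lasted 3 weeks, so that the open side of the MOE stayed ventilated and the closed side was deprived. By the design text each sample pooled tissue of 2 mice, whereas figure legends of the study give a larger number for this experiment. The labels do not say whether an open and a closed sample came from the same mice. Titles and design give an age of 5 weeks, whereas an age tag gives 6 months. In H2be-KO mice the coding sequence of H2be (Hist2h2be, now H2bc21), a histone variant of olfactory neurons, was replaced by a membrane-targeted Gap43-mCherry sequence, and both groups of each genotype carried the same alleles. The open side was the only control, since no array came from mice without surgery.

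Olfactory sensory neurons (OSNs) are born throughout life from basal cells, pass through an immature stage marked by growth-associated proteins, and mature into neurons that convert odor binding into a cAMP signal in their cilia. Closing a nostril removes most airborne odorants and airflow from that side of the nose, and is a common way to lower OSN activity while the opposite side serves as a reference. Many OSN genes respond to activity, including genes of the transduction cascade, of axon guidance and of synaptic release. The comparison of the sides across both genotypes asks which genes follow occlusion by amounts too small to be called in a single genotype.

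The tissue matched its label. Omp, the marker of mature OSNs, lay between 12.53 and 12.71 (log2 intensity) on the arrays and differed by 0.03 ± 0.055 (log2 change ± SE, limma adjusted p = 0.91) between sides. Cyp2g1 of sustentacular cells changed by -0.04 (adjusted p = 0.819) and Krt5 of basal cells by -0.22 (adjusted p = 0.321). H2bc21 lay between 11.55 and 11.75 on the WT arrays and between 11.31 and 11.46 on the KO arrays, a difference of -0.27 ± 0.0508 that did not pass over all probe sets (adjusted p = 0.336); whether this probe set lies in the replaced coding sequence is not given in the sources used here, so it is a weak check of the labels. The 12 array medians spanned 7.21 to 7.30, and correlations between arrays ran from 0.968 to 0.985.

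In the pooled comparison 329 genes other than Olfr genes were higher on the closed side (1.79% of 18394) and 281 were lower (1.53%). For the WT effect in the same fit 181 genes passed (0.984%), and for the KO effect 219 passed (1.19%). Of the 610 genes called in the pooled comparison, 142 also passed in both genotypes, 69 also passed in KO, 36 also passed in WT, and the 363 pooled-only genes made up the rest. The median size of change was 0.65 on the log2 scale (1.56-fold) for genes that passed everywhere, and 0.32 (1.25-fold) for pooled-only genes. The pooled-only changes ranged from 0.23 to 0.80 (1.17-fold to 1.74-fold), and 7 of the genes exceeded 1.5-fold. Pooling raised the arrays on a side from 3 to 6. The median SE over all probe sets was 0.0945 for the pooled change and 0.134 for the WT change, so a 95% interval spanned about 0.207 on either side of a pooled change and 0.293 on either side of a WT change.

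The choice rests on thresholds, and genes close to them differed little. Fbxl19 was the last gene inside the pooled threshold, at -0.27 (adjusted p = 0.0499), and Cflar, an inhibitor of death-receptor signalling, was the first outside it, at -0.24 (adjusted p = 0.0503). Fam13a, at 0.37, just missed a call in both genotypes (adjusted p = 0.0503 in WT and 0.0502 in KO). Without one array the count of pooled-only genes ran from 211 to 308. It fell by over 1.5 times without the first KO open array (237), the first WT open array (226) or the third WT open array (211). The pooled count of 610 fell by as much without those arrays (372, 402 and 393) and without the second KO closed array (403). Over the 12 fits that each left out an array, 104 of the 363 genes were called every time, 32 were called in none, and all 363 kept their direction.

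As these adjusted p-values chose the genes, values in the same arrays describe them and do not test them. The 6 closed arrays lay above all 6 open arrays for 170 of the rising genes and below them for 143 of the falling genes. Such separation was present in 2.56% and 2% of all genes tested. In the remaining 50 pooled-only genes the sides overlapped. The unadjusted p was under 0.05 in both genotypes for 339 genes, only in WT for 15, and only in KO for 9.

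Of 22 tested genes of odor transduction, 10 were higher on the closed side, 11 did not pass and 1 fell (Slc8a1, a sodium-calcium exchanger, by 1.19 on the log2 scale), and the median change was 0.23 against 0.01 over all genes tested. The pooled-only members were Gnal, Adcy3, Cnga2, Rtp1, Reep1 and Stoml3, and all 6 were higher on the closed side.

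Gnal encodes the olfactory G protein alpha subunit. Its open values were 11.0025, 11.08 and 11.20 (lowest, median and highest of 6 arrays, log2 intensity), and its closed values were 11.32, 11.39 and 11.51, so that no open array reached a closed one. The change was 0.31 ± 0.0639 (adjusted p = 0.0241). Adcy3, the adenylyl cyclase that makes cAMP in the cilia, lay at 11.22, 11.24 and 11.29 on the open side and at 11.48, 11.54 and 11.60 on the closed side, a rise of 0.29 ± 0.0517 (adjusted p = 0.00997). Cnga2, part of the channel that cAMP opens, was at 11.58, 11.63 and 11.68 open and at 11.81, 11.90 and 11.95 closed, a rise of 0.26 ± 0.0544 (adjusted p = 0.0256). The other subunits, Cnga4 (0.40) and Cngb1 (0.38), rose by more and also passed in at least 1 genotype. Rtp1, which helps receptors reach the membrane, rose by 0.27 (adjusted p = 0.0209), Reep1, which also aids receptor traffic, by 0.28 (adjusted p = 0.028), and Stoml3, a ciliary stomatin protein and the brightest of the 6 at a mean of 12.54, by 0.23 (adjusted p = 0.0342). Only Adcy3 was called in all 12 fits without an array; Gnal was called in 4, Cnga2 in 3, Rtp1 in 7, Reep1 in 2 and Stoml3 in none.

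The wider list of mature OSN markers was divided. Of 24 genes tested, 10 rose and 5 fell. Pooled-only members that fell were Slc17a6, the vesicular glutamate transporter of OSN terminals, Nrn1l, a neuritin-like protein, and Syt7, a synaptotagmin. Slc17a6 lay at 11.07, 11.17 and 11.18 on the open side and at 10.71, 10.80 and 10.85 on the closed side, with no overlap. Its change of -0.36 ± 0.056 (adjusted p = 0.00389) was called without any single array. Nrn1l changed by -0.33 (adjusted p = 0.0204) and Syt7 by -0.27 (adjusted p = 0.03). Umodl1, an extracellular protein made by OSNs, rose by 0.25 (adjusted p = 0.0309).

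**Figure D1:**
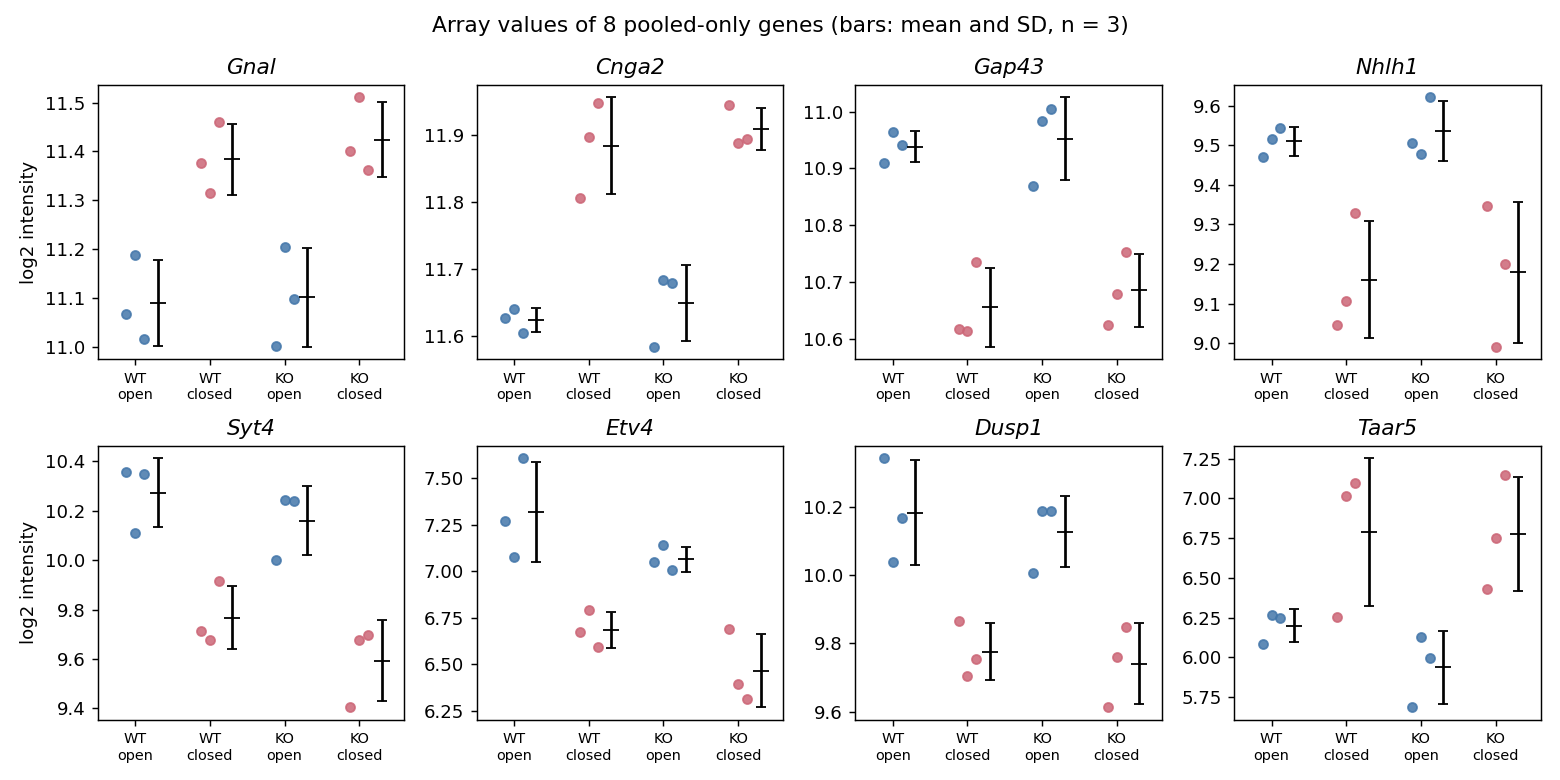
Log2 intensity of 8 pooled-only genes on the 12 arrays (vertical axis, a scale of its own for each gene) by genotype and side (horizontal axis), with points for arrays and bars for the mean and SD of 3 arrays. Gnal and Cnga2 are higher on the closed side (0.31 and 0.26), Gap43, Nhlh1, Syt4, Etv4 and Dusp1 are lower, and for Taar5 (0.71) 1 WT closed array lies among the open ones.

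Of 24 tested genes of immature OSNs, 11 were lower on the closed side, none rose, and 13 did not pass, with a median change of -0.19. The pooled-only members were Gap43, Stmn1, Stmn2, Stmn4, Dpysl3, Tubb3, Tubb2b and Dbn1, which encode proteins of growing axons and their microtubules and actin. Gap43, the classic marker of this stage, lay at 10.87, 10.95 and 11.004 on the open arrays and at 10.61, 10.65 and 10.75 on the closed arrays. It fell by 0.28 ± 0.0571 (adjusted p = 0.0241), with no overlap. The KO allele carries a Gap43-mCherry sequence, and whether the probe set also reads it was not tested. The change was -0.28 in WT and -0.27 in KO. Tubb2b fell by 0.32 ± 0.0593 (adjusted p = 0.0136) and Dpysl3, a collapsin response mediator, by 0.32 ± 0.0616 (adjusted p = 0.0171). Tubb2b was called without any single array, Dpysl3 in 10 of those 12 fits, Stmn4 in 6, and Gap43 and Stmn1 in 3.

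The cytoskeleton and axonal transport list, which shares several of these genes, had 68 tested members, of which 11 fell and 1 rose. Its pooled-only members that fell included 4 tubulins (Tubb2a, Tubb2b, Tubb3 and Tubb5, from -0.24 to -0.32), 4 stathmins (Stmn1 to Stmn4, from -0.26 to -0.31) and the vesicle motor Kif1a (-0.27, adjusted p = 0.044). Tubulin genes are alike in sequence, so their single values are uncertain. The exception was Tppp, a tubulin polymerization-promoting protein, which rose by 0.35 ± 0.0687 (adjusted p = 0.0164). Of the named tubulins, stathmins and Kif1a, only Tubb2b was called in all 12 fits without an array. The calls of Tubb2a, Tubb3, Tubb5, Stmn2, Stmn3 and Kif1a were kept in 1, 2, 0, 2, 4 and 1 of them. Elavl2, an RNA-binding protein of young neurons, fell by 0.30 ± 0.0547 (adjusted p = 0.0118), and Bex1 and Bex2 changed by -0.44 and -0.29 (adjusted p = 0.0434 and 0.0358). Elavl2, Bex1 and Bex2 were picked with their values in view. Their calls were kept in 12, 3 and 2 of the 12 fits.

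Among 21 tested basal and progenitor genes 4 fell, none rose and 17 did not pass. All 4 were pooled-only transcription factors of neuronal progenitors: Neurod1, Insm1, Nhlh1 and Sox11. Insm1, which acts as progenitors leave division, lay at 9.74, 9.80 and 9.94 open and at 9.40, 9.53 and 9.60 closed. It fell by 0.30 ± 0.0541 (adjusted p = 0.0105) and was called without any single array. Nhlh1 changed by -0.35 (adjusted p = 0.0311), Neurod1 by -0.27 (adjusted p = 0.0429) and Sox11 by -0.26 (adjusted p = 0.0317), and these 3 calls were kept in only 2, 1 and 1 of the 12 fits. The list as a whole had a median of -0.06, with 9 genes positive and 12 negative, and its mean level overlapped between sides (8.48 to 8.63 open, 8.46 to 8.60 closed). Id4, an inhibitor of bHLH factors, rose by 0.39 ± 0.0718 (adjusted p = 0.0118).

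In the cell division list 1 of 39 genes passed. Rrm2, a subunit of the enzyme that makes deoxynucleotides, lay at 7.54, 7.61 and 7.73 open and at 7.14, 7.30 and 7.45 closed, a fall of 0.33 ± 0.0703 (adjusted p = 0.0279). Of the list's genes 29 had a negative change, and the median was -0.13. Outside the list, the spindle proteins Hmmr (-0.58, adjusted p = 0.044) and Tacc3 (-0.28, adjusted p = 0.0493), the centriole kinase Plk4 (-0.27, adjusted p = 0.0479) and Cdca3 (-0.40, adjusted p = 0.0462) fell, whereas Foxm1 (0.30, adjusted p = 0.0245) and Cks2 (0.26, adjusted p = 0.0209) rose. These 6 genes were picked with their values in view, and none was called in all 12 fits.

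In bulk tissue fewer cells of a type and less RNA per cell cannot be told apart, and this holds for each of these lists. The mean level of the immature OSN list ran from 9.57 to 9.65 on the open arrays and from 9.39 to 9.51 on the closed arrays, without overlap. For odor transduction genes the ranges were 10.46 to 10.55 open and 10.57 to 10.66 closed. Sustentacular genes overlapped widely, at 10.59 to 10.78 open and 10.65 to 10.75 closed.

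**Figure D2:**
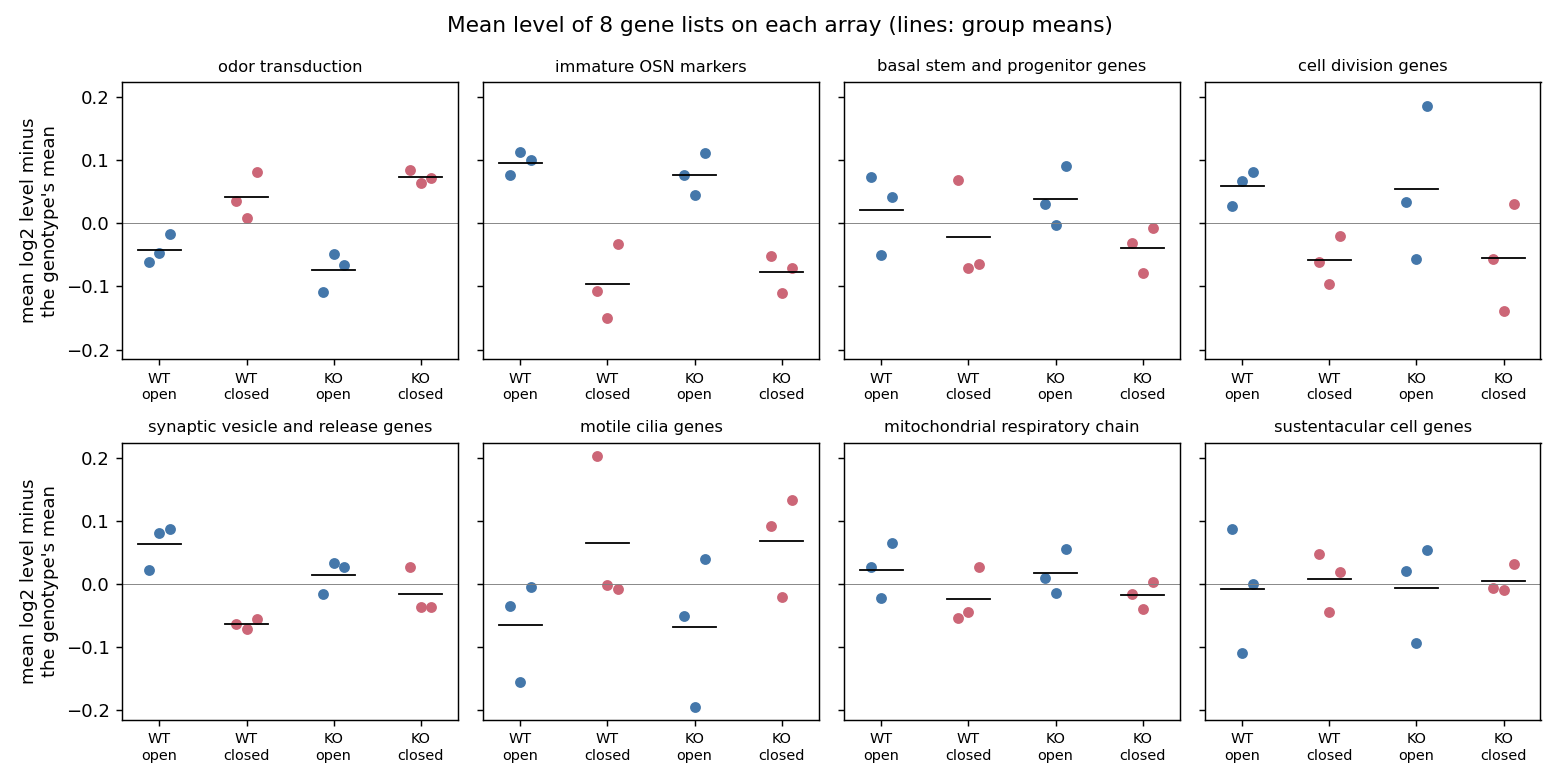
Mean log2 level of the tested genes of 8 lists on each array minus the mean of that genotype's 6 arrays (vertical axis, the same scale for all lists), by genotype and side, with a line at each group mean. Odor transduction genes are higher and immature OSN genes lower on all closed arrays, while the sides overlap in both genotypes for motile cilia, mitochondrial and sustentacular genes, in KO but not in WT for cell division and synaptic genes, and in WT but not in KO for basal genes.

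Synaptic vesicle and release genes fell more often than they rose, with 13 of 55 lower, 3 higher and a median of -0.09. Syt4, a synaptotagmin of peptide-containing vesicles, was the largest of the pooled-only falls among them. It lay at 9.999, 10.24 and 10.36 open and at 9.40, 9.69 and 9.91 closed, a change of -0.54 ± 0.0846 (adjusted p = 0.00443) that was called without any single array. Cadps2 (-0.31, adjusted p = 0.0125) and Ppfia2 (-0.29, adjusted p = 0.0119), which prime vesicles and organise the active zone, were called in all 12 fits as well. The fusion ATPase Nsf fell by 0.32 (adjusted p = 0.0174), Syt5 by 0.30 (adjusted p = 0.0241) and Cadps by 0.25 (adjusted p = 0.0298). Vamp1, a vesicle SNARE, went the other way, at 8.74, 8.79 and 8.96 open and 9.08, 9.13 and 9.32 closed, a rise of 0.34 ± 0.0617 (adjusted p = 0.0116).

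Of genes outside the list, picked with their values in view, Syt9 (-0.37), the vesicle protein Svop (-0.43) and the synaptic adhesion proteins Nlgn3 (-0.35) and Clstn3 (-0.48) fell, with adjusted p from 0.0267 to 0.0486. Syt10, a synaptotagmin of secretory granules, rose by 0.50 ± 0.101 (adjusted p = 0.0225). Calcium-sensor genes had 3 pooled-only falls, S100a6 (-0.34, adjusted p = 0.0141), Hpcal1 (-0.35, adjusted p = 0.0138) and Vsnl1 (-0.35, adjusted p = 0.0256), and 1 rise, S100a13 (0.25, adjusted p = 0.0434). Over the whole list of 45 calcium-binding genes 3 rose and 5 fell.

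Immediate early genes are switched on by neuronal activity in many tissues. In the immediate early list of 38 genes 3 fell and 1 rose, and the pooled-only members moved in opposite directions. Dusp1, a phosphatase of MAP kinases, lay at 10.01, 10.18 and 10.34 open and at 9.61, 9.76 and 9.87 closed, a fall of 0.40 ± 0.075 (adjusted p = 0.0138). Dusp5, a nuclear ERK phosphatase, lay at 6.68, 6.74 and 6.95 open and at 7.01, 7.28 and 7.42 closed, a rise of 0.45 ± 0.0776 (adjusted p = 0.00788). Both were called without any single array, and neither overlapped between sides.

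Etv4, an ETS factor that responds to ERK signalling, lay at 7.01, 7.11 and 7.61 open and at 6.31, 6.63 and 6.79 closed. Its change of -0.62 ± 0.0982 (adjusted p = 0.00471) and that of its relative Etv5 (-0.46 ± 0.0803, adjusted p = 0.00853) were called in all 12 fits. Spred1, an inhibitor of Ras-ERK signalling (-0.28, adjusted p = 0.0408), and Dusp16, a phosphatase of stress-activated kinases (-0.32, adjusted p = 0.0348), were lower too. Each of these calls was kept in only 2 of the 12 fits. The small GTPases Gem (-0.49, adjusted p = 0.0248) and Rasl11a (-0.41, adjusted p = 0.00889) were the pooled-only members of 52 RGS, Ras and Rap regulators, of which 5 fell and none rose. Gem was called in 3 of the 12 fits and Rasl11a in all 12. Nptx2, a secreted pentraxin at synapses, fell by 0.38 ± 0.0624 (adjusted p = 0.00565), Scg2, a granin of dense-core vesicles, by 0.34 ± 0.0757 (adjusted p = 0.036), and the coactivator Ppargc1a by 0.33 ± 0.0609 (adjusted p = 0.0132). For Scg2 the sides overlapped (lowest open 8.0655, highest closed 8.107). Its call was kept in 1 of the 12 fits, those of Nptx2 and Ppargc1a in all 12. Etv5, Spred1, Dusp16, Nptx2, Scg2 and Ppargc1a were picked with their values in view.

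The cAMP response element TGACGTCA, which binds factors of the CREB family, was looked for on either strand in the 250 bases before the start of each gene (RefSeq promoters, GRCm38.p6). A promoter was on hand for 14379 of the 18394 genes tested, and 362 of these held the element (2.52%). Among the pooled-only genes it was present in 3 of 153 that rose (1.96%) and in 4 of 134 that fell (2.99%), shares close to that of all genes. The 7 stretches are printed 5′ to 3′ along the gene's strand because Dusp1 and Scg2 are among them, with the element in capitals; Dusp1, Scg2, Tubb2a and Nfkbid fell, and Mitf, Ell2 and Abhd16a rose.
Dusp1, chr17:26508578-26508645, minus strand: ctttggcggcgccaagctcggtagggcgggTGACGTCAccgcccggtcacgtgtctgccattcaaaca
Scg2, chr1:79440057-79440124, minus strand: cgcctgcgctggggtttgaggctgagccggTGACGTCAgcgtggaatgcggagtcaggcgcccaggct
Tubb2a, chr13:34078030-34078097, minus strand: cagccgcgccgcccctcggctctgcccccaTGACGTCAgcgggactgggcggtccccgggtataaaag
Nfkbid, chr7:30422325-30422392, plus strand: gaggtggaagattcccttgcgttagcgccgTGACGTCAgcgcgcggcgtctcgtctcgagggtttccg
Mitf, chr6:97991600-97991667, plus strand: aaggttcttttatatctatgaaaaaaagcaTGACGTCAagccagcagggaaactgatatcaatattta
Ell2, chr13:75707256-75707323, plus strand: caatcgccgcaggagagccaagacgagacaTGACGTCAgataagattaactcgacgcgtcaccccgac
Abhd16a, chr17:35089194-35089261, plus strand: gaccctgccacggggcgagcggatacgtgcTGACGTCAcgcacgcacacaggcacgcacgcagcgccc

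The element began 143 bases before the start of Dusp1, 68 before Scg2 and 59 before Tubb2a. The Tubb2a stretch ends in a TATA-like run. The Ebf core CCCNNGGG, known from many OSN promoters, was in 22.2% of promoters of genes that rose and 22.4% of those that fell, against 17.1% of all. The homeodomain core TAATTA was in 3.27% and 3.73%, against 3.92%. These are matches of letters, not binding sites.

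Trace amine-associated receptors (TAARs), are a family of amine-detecting receptors of which an OSN expresses 1. Of 12 tested 6 rose, none fell and 6 did not pass, with a median of 0.46. Taar5 lay at 5.68, 6.11 and 6.27 open and at 6.25, 6.88 and 7.15 closed, so that the sides overlapped, and its rise of 0.71 ± 0.161 (adjusted p = 0.0371) was called in 2 of the 12 fits. Taar7e lay at 8.14, 8.36 and 8.48 open and at 8.67, 8.87 and 9.03 closed, without overlap, a rise of 0.52 ± 0.0863 (adjusted p = 0.00636) that was called in all of them. Taar7d rose by 0.46 (adjusted p = 0.0389) and Taar7f by 0.45 (adjusted p = 0.0258). Taar6 (0.51) and Taar7b (0.82) rose and also passed in a single genotype or both. The Taar7 genes are near copies, so a probe set of one may read another.

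Axon guidance and adhesion genes moved both ways. Among 65 guidance genes 8 rose and 6 fell, and the pooled-only members were Efna4 (0.43, adjusted p = 0.0132), an ephrin, Slit1 (0.34, adjusted p = 0.0325), a repellent, and Sema6a (-0.32, adjusted p = 0.0221), a semaphorin. Among 60 adhesion genes 4 rose and 4 fell. Lsamp, an immunoglobulin-family adhesion protein, lay at 5.89, 6.06 and 6.30 open and at 6.47, 6.81 and 7.07 closed, a rise of 0.73 ± 0.116 (adjusted p = 0.00473) called in all 12 fits. Slitrk6 rose by 0.43 (adjusted p = 0.0447), while Pcdh7 (-0.29, adjusted p = 0.0327) and Dscaml1 (-0.38, adjusted p = 0.0452) fell.

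Potassium channels were split in the same way, with 5 of 67 higher and 6 lower. Kcna5 rose by 0.33 ± 0.0597 (adjusted p = 0.0107) and Kcnq1 by 0.33 ± 0.0669 (adjusted p = 0.0209). Kcnn3, a calcium-activated channel of small conductance, lay at 7.05, 7.19 and 7.33 open and at 6.61, 6.69 and 6.88 closed, a fall of 0.45 ± 0.0737 (adjusted p = 0.00556), and Kcnh8 fell by 0.43 ± 0.0866 (adjusted p = 0.0213). Slc12a5, the chloride exporter KCC2, rose by 0.39 ± 0.0767 (adjusted p = 0.0172), Slc22a17 fell by 0.26 (adjusted p = 0.0482), and the ATP-gated channel P2rx4 rose by 0.30 (adjusted p = 0.0152).

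**Figure D3:**
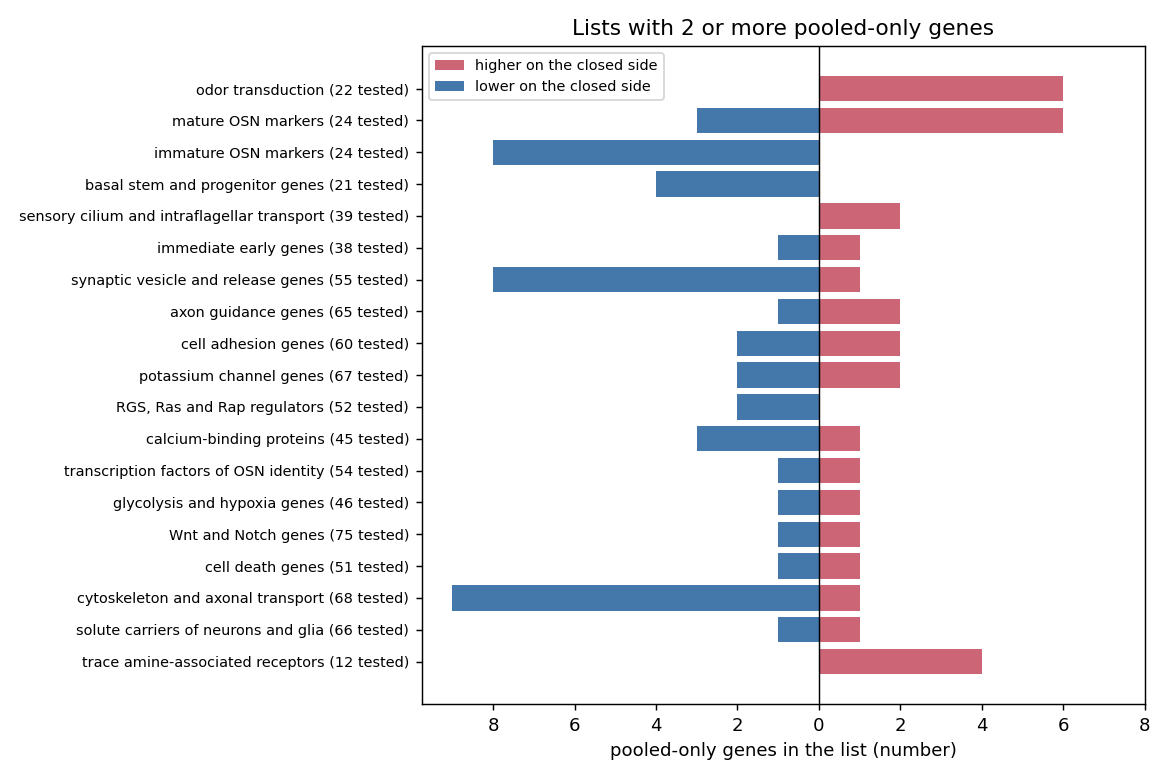
Number of pooled-only genes that were higher (right of 0) or lower (left of 0) on the closed side in each gene list with at least 2 of them (horizontal axis, genes). Odor transduction (6) and TAAR (4) members were all higher, immature OSN (8) and progenitor (4) members all lower, and the lists share some genes.

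The largest changes lay mostly outside these lists. Cyp2c23, an arachidonic acid epoxygenase, lay at 5.79, 6.24 and 6.57 open and at 6.60, 7.03 and 7.35 closed, a rise of 0.80 ± 0.125 (adjusted p = 0.00441). Tmem269 (0.59), Ccdc81 (0.50) and Phyhip (0.48) rose with adjusted p from 0.00307 to 0.00627, and Mitf, a melanocyte and mast cell transcription factor, by 0.45 (adjusted p = 0.0223). Cpn2 rose by 0.56 (adjusted p = 0.0274) from the lowest mean level of the 363 genes (5.10), 3300002A11Rik by 0.49 (adjusted p = 0.028), and Olfm4, an olfactomedin, by 0.58 (adjusted p = 0.03). Olfm4 was picked with its values in view. Its sides overlapped (highest open 7.24, lowest closed 6.98), and its call was kept in 2 of the 12 fits without an array.

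Serpina3n, an acute-phase protease inhibitor, lay at 10.07, 10.61 and 10.77 open and at 9.69, 9.92 and 10.10 closed, a fall of 0.63 ± 0.115 (adjusted p = 0.0113). Sele, the endothelial E-selectin, fell by 0.66 ± 0.137 (adjusted p = 0.025), and its sides overlapped as measured but not after each genotype's mean was subtracted. Zcchc12 (-0.54, adjusted p = 0.00319), Adamts15 (-0.50, adjusted p = 0.0051), Nfkbid (-0.51, adjusted p = 0.0137) and Igsf9b (-0.54, adjusted p = 0.0174) fell without overlap. Thsd7a, Tmem169 and Trhde changed by -0.47 to -0.48 (adjusted p from 0.0186 to 0.0479).

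Single genes of other lists also belonged here. Neuronal enolase Eno2 fell by 0.41 ± 0.0669 (adjusted p = 0.00556) while aldolase C, Aldoc, rose by 0.24 (adjusted p = 0.0462). The pro-death BH3 genes went opposite ways, Bcl2l11 (Bim) by -0.43 (adjusted p = 0.0253) and Hrk by 0.28 (adjusted p = 0.0334). Wnt7b fell by 0.41 (adjusted p = 0.0412) and the Wnt co-receptor Lrp6 rose by 0.25 (adjusted p = 0.0402). Other rises were the desaturase-family gene Fads6 (0.40), the sorting receptor Sort1 (0.26), the chemokine Cx3cl1 (0.26) and the prenyl-binding protein Pde6d (0.26), with adjusted p from 0.0105 to 0.0388. The repressors Bcl6 (-0.36, adjusted p = 0.0115) and Tle3 (-0.42, adjusted p = 0.00349), picked with their values in view, fell. Of 75 chromatin-modifying enzymes none passed. Outside that list, Macroh2a1, a histone variant, rose by 0.23 (adjusted p = 0.0375), and Jarid2 (-0.27, adjusted p = 0.03) and Smarcd2 (-0.25, adjusted p = 0.0413) fell. Macroh2a1, Jarid2 and Smarcd2 were picked with their values in view, and their calls were kept in 0, 2 and 0 of the 12 fits without an array.

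The genes of the cilium lists that passed all rose. Over all genes tested 1.79% were called higher and 1.53% lower. In the list of sensory cilia 2 of 39 passed, the transport proteins Tulp3 (0.31, adjusted p = 0.0225) and Traf3ip1 (0.24, adjusted p = 0.0487). In the motile cilia list 2 of 40 passed, 33 were positive and the median was 0.14. Its pooled-only member was Armc4 (0.33, adjusted p = 0.0327), and Foxj1, the master factor of multiciliated cells, changed by 0.22 (adjusted p = 0.0843). In neither list, and picked with their values in view, were Spef2, a motile axoneme protein (0.34, adjusted p = 0.00861), Rsph14 (0.38, adjusted p = 0.0317) and the ciliary transcription factor Rfx3 (0.26, adjusted p = 0.029). The summed linear level of the motile cilia list ran from 13720 to 15480 on the open arrays and from 15190 to 17480 on the closed ones.

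Counts in lists of other tissues and cell types stand beside the shares over all genes tested, 1.79% called higher and 1.53% lower. In lists of this size such shares amount to few genes. Extracellular matrix genes had 60 of 72 positive changes and a median of 0.11, with 2 passing, and bone and cartilage genes 20 of 21 positive, a median of 0.12 and none passing. The summed level of bone genes ran from 15190 to 18710 open and from 16520 to 19610 closed. Of the sustentacular list 1 of 29 passed, Sult1d1, a sulfotransferase (0.37, adjusted p = 0.0195), and of the glial list 1 of 21, Mbp of myelin (-0.31, adjusted p = 0.0471). None of 38 leukocyte, 34 interferon-induced, 26 endothelial and mural, 20 muscle, 12 vomeronasal and 66 respiratory chain genes passed, although 54 of the last were negative. The part of connective or ciliated tissue in the changes of the pooled-only genes was not tested.

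Both genotypes moved the same way in all 363 genes. The choice of the genes requires this, since an effect not called in either genotype is too small to reach the pooled threshold against an opposite one. It is thus no measure of agreement between genotypes. Medians for the rising genes were 0.30 in WT and 0.32 in KO, and for the falling genes -0.35 and -0.32. The change was larger in WT for 80 of the 188 rises and for 116 of the 175 falls. This tilt depended on the scaling: with each array centred on its median it was 107 of 188 and 81 of 175, and with quantile normalization 86 and 94. No gene passed the test of a difference of the occlusion effect between genotypes (0 of 18394, or 0%, with 1309 of all probe sets at an unadjusted p under 0.05). The largest difference among the pooled-only genes was 0.44, while a 95% interval spanned 0.414 on either side at the median SE of all probe sets. The choice of genes by p favours those with a small SE. Among the pooled-only genes the median half-width of the pooled change was 0.139, against 0.207 over all probe sets. Their intervals for a difference between genotypes were thus narrower too, but small to moderate differences could still be missed at this number of arrays.

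**Figure D4:**
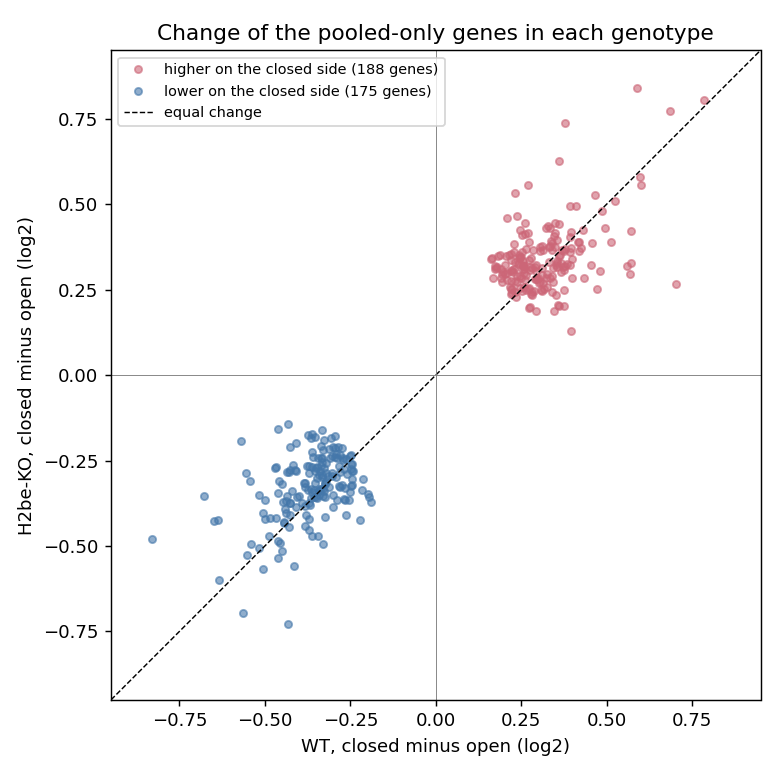
Change between sides (closed minus open, log2) of each of the 363 pooled-only genes in WT (horizontal axis) and H2be-KO mice (vertical axis), on equal scales with a dashed line of equal change. The 188 rises lie in the upper right and the 175 falls in the lower left, as the choice of the genes requires.

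The genotype effect over both sides passed for 2 of 18394 genes (0.0109%) and for none of the 363. At an unadjusted p under 0.05 it was present in 17 of the 363 (4.68%), against 6.51% of all genes other than Olfr genes tested. The median size of the genotype effect among the pooled-only genes was 0.05, against 0.07 over all genes other than Olfr genes. The pooled-only genes were also brighter (median of the mean levels 8.99 against 7.76), and their choice favours a small SE. For 19 of the genes the array held 40 further probe sets, of which 39 had the sign of the brightest one and 27 were called in the same direction.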

How the data were processed

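RNA of open and closed sides of the MOE was measured on 12 arrays. The authors processed the scans with Affymetrix Expression Console, by IterPLIER with sketch-quantile normalization, and deposited log2 intensities per probe set, which were used as they stand. Arrays have no read depth, so their number limits the precision. Normalization across arrays removes any change shared by most genes. Genes came from the platform annotation, with symbols updated through RefSeq (GRCm38.p6).

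Of 35556 probe sets, 32615 with a mean above 5 were tested. The 4 group means were fitted with limma 3.58.1 (lmFit and eBayes, R 4.3.3), the pooled effect being the mean of the WT and KO effects, with Benjamini-Hochberg adjustment over all tested probe sets and a threshold of 0.05. The script was tested on simulated data. A change is closed minus open on the log2 scale, ± SE. Nothing in the labels ties replicates to separate litters, so p-values measure the spread between pooled samples, whose number of mice the sources give differently. Same-numbered open and closed samples correlated at -0.00903 to 0.233, with 2 of 6 pairs over 0.1, and other pairs at -0.186 to 0.127. In some lists, such as heat shock and oxidative stress, the second replicate had the lowest mean level in all 4 groups. In others, such as odor transduction, it did not. Numbers were not used to pair samples in the main fit, and whether they mark shared mice or a batch was not tested.

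Genes were named by rule: the 12 largest rises and falls without overlap of the sides after subtracting each genotype's mean, up to 3 per list by p, check genes and threshold genes (79 genes). Another 59 were picked with their values in view. Members and the 45 lists were chosen with earlier results of these data known. Alternatives were other filters, scalings, models, thresholds and leaving out each array.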

Additional observations from a re-analysis of the deposited data

How the results depend on the processing

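All 363 pooled-only genes kept their direction under every alternative that tested them. Only array weights, rescaling and a left-out array could alter it, because the other filters, models and thresholds leave the pooled change itself as it was. Calls were less firm. Whether same-numbered samples share mice or a batch was not tested, and 3 of 6 open samples correlated best with their own number. With a replicate block on those numbers, 219 genes were higher in the pooled comparison and 146 of the 363 were still called. In that fit 65 genes passed in WT, 83 in KO and 4 for genotype. With a mean above 7, 325 passed in WT, 330 in KO and 5 for genotype. With trend and robust variances, 351 passed in WT, 405 in KO and 11 for genotype, and 134 genes remained pooled-only. With array weights 348 passed in KO. With each genotype fitted alone, 25 passed in WT and 76 in KO, which left 288 pooled-only rises. At a threshold of 0.01 there were 284 pooled calls and 192 pooled-only genes. If an unadjusted p of 0.05 or more was asked of each genotype, 0 genes were left. The thresholds fix this count, since effects that weak in both genotypes cannot together reach the pooled threshold. The cause of the other shifts was not tested, except that fewer arrays or probe sets enter some of these fits by construction.

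Without one array, the pooled comparison called 372 to 520 genes (199 to 275 higher, 170 to 245 lower), pooled-only genes numbered 211 to 308 (112 to 168 higher, 99 to 149 lower), WT calls 63 to 143, KO calls 91 to 196, and genotype calls 2 to 4. Of 2879 values of named genes under 21 alternatives, 1984 kept their side of the threshold, 886 were no longer past it and 9 newly passed it. Direction changed in 0, though many of these alternatives could not change it. With 3 arrays a group, changes under about 0.207 in the pooled comparison lie within the typical 95% interval.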
